A study of Mus musculus with 24 samples.

Results

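DNA methylation in 100 bp tiles of the mouse genome was compared between liver, brain and heart, and the tiles that were low in liver and high in both other tissues are described here. A tile was taken when its mean liver level lay at least 0.4 below its mean brain level and at least 0.4 below its mean heart level, with the brain and heart means within 0.2 of each other. Levels are fractions of methylated CpG calls from 0 to 1. Of 758685 tiles present in all 3 tissue tables, 9247 met this rule (1.22% of tiles), and they are called liver-low tiles below. The mirrored rule gave 1999 tiles low only in brain (0.263%) and 4518 low only in heart (0.596%). The tiles were chosen by these mean levels of all 24 libraries, so the levels are given as a description, with no test.

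All animals were C57BL/6J mice, an inbred strain, of 24 weeks of age, and the labels name no treatment, transgene or deletion in any group. Enhanced RRBS, in which restriction enzymes and bisulphite give the methylation of CpGs near the cut sites, was run on liver from 6 males and 6 females and on brain and heart from 3 males and 3 females each, 24 libraries in all. A pair of mouse numbers carries one gender in the liver labels and the other in the brain and heart labels, so the counts by gender follow each library's own label. The brain and heart donors are also liver donors by the study's methods, so some liver libraries share a mouse with a brain and a heart library. The columns of levels are numbered in a way that fits no mouse number, so each column was given its tissue from the table it stands in and none was given a gender, a mouse or a pairing. The tables give no read counts, so the depth behind a level is unknown beyond the authors' minimum of more than 10 reads. By the study's methods, the DNA came from the rostral end of the brain, the apex of the heart and the left lobe of the liver. The levels are of those parts. In tissue of mixed cells, a low level in every cell and a lower level in some of the cells cannot be told apart.

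The tissue of each table was checked on tiles within 1000 bp of the starts of marker genes, most of which had no tile. Hnf4a, a transcription factor that defines hepatocytes, had 2 tiles with a median level of 0.284 in liver, 0.885 in brain and 0.745 in heart. Mybpc3, a myosin-binding protein of cardiomyocytes, had 2 tiles at 0.941 in liver, 0.914 in brain and 0.557 in heart. Gfap, the intermediate filament of astrocytes, had 3 tiles at 0.847 in liver, 0.736 in brain and 0.827 in heart. These 3 genes were lowest in the tissue they mark, although the differences at Gfap were small. Other neuronal and glial markers did not separate the tissues: Snap25 and Syt1, of neurons, were at or below 0.0418 in every tissue. Mbp, of myelin, was at 0.031 in liver, 0.0337 in brain and 0.0383 in heart. Markers of the liver's other cells went both ways. Krt7, of cholangiocytes, was lowest in liver (0.286, against 0.492 in brain and 0.399 in heart). Pdgfrb, of stellate cells, was at 0.251 in liver, 0.196 in brain and 0.0403 in heart. Cdh5, of endothelium, was at 0.804, 0.852 and 0.658. Lrat, Reln, Krt19 and Epcam were at or below 0.0798 in every tissue. The check thus rests on few tiles. Alb, Apoa1, Ttr and Cps1 had no measured tile this close to their starts.

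As background, most CpGs of a differentiated mammalian tissue are methylated, while CpG islands at promoters are mostly free of methylation in every tissue. Enhancers bound by transcription factors tend to lose methylation in the cell type in which they are active. Hepatocytes, which make up most of the liver's mass, secrete plasma proteins, clear nitrogen as urea, make bile acids and glucose, and are specified by factors of the HNF4, FOXA, CEBP and ONECUT families.

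The 5 liver-low tiles with the largest gap are printed to show what such a tile looks like, the gap being the lower of the brain and heart means minus the liver mean. Coordinates are on mm10, the plus strand is shown, and CpGs are in capitals.
Usp47, intron 3, chr7:112055901-112056000: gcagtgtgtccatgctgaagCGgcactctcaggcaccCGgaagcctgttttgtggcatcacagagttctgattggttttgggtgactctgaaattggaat
Rxra, intron 4, chr2:27748501-27748600: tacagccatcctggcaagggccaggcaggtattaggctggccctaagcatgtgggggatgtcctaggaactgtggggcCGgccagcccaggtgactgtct
Snx18, intron 1, chr13:113601901-113602000: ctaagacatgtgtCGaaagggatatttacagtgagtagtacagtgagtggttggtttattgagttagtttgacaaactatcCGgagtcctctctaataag
Hs3st3b1, intron 1, chr11:63918201-63918300: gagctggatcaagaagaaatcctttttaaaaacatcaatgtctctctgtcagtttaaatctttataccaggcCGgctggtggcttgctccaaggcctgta
Pik3ap1, intron 2, chr19:41348001-41348100: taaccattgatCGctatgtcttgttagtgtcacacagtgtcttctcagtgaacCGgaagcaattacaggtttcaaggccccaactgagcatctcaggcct

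These 5 tiles held only 1 or 2 CpGs each, all of them lay in introns, and none was in a CpG island. The Usp47 tile, in the gene of a deubiquitinase, ranged over the 12 liver libraries from 0.011 to 0.205 with a median of 0.118. In the 6 brain libraries it ranged from 0.873 to 0.962 (median 0.932) and in the 6 heart libraries from 0.907 to 0.944 (median 0.922), a gap of 0.808. No liver library came near any library of the other tissues. At the Rxra tile, in the gene of the receptor that pairs with many other nuclear receptors, liver ranged from 0 to 0.263 (median 0.182), brain from 0.902 to 0.977 (median 0.937) and heart from 0.909 to 1 (median 0.945). The Snx18 tile, in a sorting nexin gene, ranged from 0.055 to 0.223 in liver (median 0.132), with a brain median of 0.921 and a heart median of 0.949. The groups were apart at each of these tiles. At Hs3st3b1, which codes for a heparan sulphate sulphotransferase, liver ran from 0 to 0.24 (median 0.115), brain from 0.871 to 0.947 and heart from 0.84 to 0.944. At Pik3ap1, an adaptor of phosphoinositide 3-kinase, liver ran from 0.095 to 0.289 (median 0.165), brain from 0.936 to 0.974 and heart from 0.927 to 0.976. The next 5 by gap lay in Fndc3b, Mcc, Ptger1 and Tmco4 introns and 687 bp upstream of Gsr, the glutathione reductase gene, with gaps from 0.764 to 0.774.

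Tiles in genes of liver function are printed next, again with CpGs in capitals. They lie in exon 5 of Fga (fibrinogen alpha chain), exon 2 of Apof (apolipoprotein F), intron 4 of Pck1 (the rate-limiting enzyme of gluconeogenesis) and exon 3 of Hnf4a. The Hnf4a tile was chosen after its values were seen, for its 8 CpGs in coding sequence.
Fga, coding exon 5, chr3:83031201-83031300: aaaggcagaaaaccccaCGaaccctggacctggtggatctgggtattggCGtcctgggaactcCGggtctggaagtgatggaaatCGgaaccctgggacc
Apof, coding exon 2, chr10:128269401-128269500: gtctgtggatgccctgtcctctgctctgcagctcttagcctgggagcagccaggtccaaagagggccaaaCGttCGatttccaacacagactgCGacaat
Pck1, intron 4, chr2:173155001-173155100: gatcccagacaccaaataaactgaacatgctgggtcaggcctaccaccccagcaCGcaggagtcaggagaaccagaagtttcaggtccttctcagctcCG
Hnf4a, coding exon 3, chr2:163551601-163551700: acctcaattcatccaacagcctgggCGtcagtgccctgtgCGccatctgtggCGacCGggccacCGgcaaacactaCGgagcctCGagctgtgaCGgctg

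The Fga tile ranged from 0.143 to 0.365 in liver (median 0.215), from 0.92 to 0.973 in brain (median 0.948) and from 0.875 to 0.949 in heart (median 0.903). The Apof tile ranged from 0.172 to 0.24 in liver (median 0.207), the tightest liver range among the 4, against 0.955 to 0.973 in brain and 0.925 to 0.977 in heart. The Pck1 tile ranged from 0.196 to 0.342 in liver (median 0.293), from 0.947 to 1 in brain and from 0.927 to 0.971 in heart. The Hnf4a tile was the least low of the 4 in liver. Its liver libraries ranged from 0.25 to 0.551 (median 0.313), its brain libraries from 0.913 to 0.975 and its heart libraries from 0.867 to 0.954. In all 4 tiles every liver library lay below every brain and heart library.

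Across the 9247 tiles the liver level was low but seldom absent. Its median was 0.252 (interquartile range 0.211 to 0.312, lowest 0.0243, highest 0.565), against 0.859 in brain and 0.832 in heart. A liver level between 0.2 and 0.3 was found in 4836 tiles (52.3%), one between 0.1 and 0.2 in 1676 tiles (18.1%) and one below 0.1 in only 77 tiles (0.833%). The median gap was 0.521. The level hardly moved with the number of CpGs in a tile: the liver median was 0.25 in the 2390 tiles with 1 CpG, 0.253 in the 3021 with 2 CpGs and 0.257 in the 123 with 7 or more. By position it was 0.237 in promoters, 0.265 in coding sequence, 0.251 in introns and 0.25 between genes. Tiles low only in brain had a median brain level of 0.368, and tiles low only in heart a median heart level of 0.263; in heart 373 tiles (8.26%) lay below 0.1.

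At the limit of the rule, a tile in exon 6 of Hspa5, an endoplasmic reticulum chaperone gene, and one in intron 1 of Aspg, an asparaginase gene, had a gap of 0.4. A tile in intron 1 of Tex2 and one in exon 1 of Cyp2d13 fell just outside, with a gap of 0.3999. At the Hspa5 tile liver ranged from 0.305 to 0.558 and brain from 0.714 to 0.855, and at the Cyp2d13 tile liver ranged from 0.108 to 0.288 and heart from 0.474 to 0.75. Members and non-members at the limit were thus alike in size of difference.

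Each single library showed the pattern. The median over the liver-low tiles ran from 0.224 to 0.286 in the 12 liver libraries, whose medians over all tiles ran from 0.797 to 0.812. The brain libraries ran from 0.852 to 0.879 and the heart libraries from 0.833 to 0.84. Every liver library lay below every brain and heart library in 9122 of the 9247 tiles (98.6%), with overlap in the other 125; over all tiles the share was 3.06%. The rule used these same levels, so nothing is read from that excess. Liver column 9 had the highest median (0.286) and lay above the tissue mean in 67.1% of the tiles, and liver column 4 lay above it in 31.1%. In these tiles the spread between liver libraries was wider than in the other tissues. The median SD was 0.0676 in liver (n = 12), 0.0503 in brain (n = 6) and 0.0471 in heart (n = 6). The tissues stand at unlike levels in these tiles, and their SDs were not compared at equal levels. Tiles outside the rule at the same liver levels had a similar median SD of 0.0686.

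**Figure D1:**
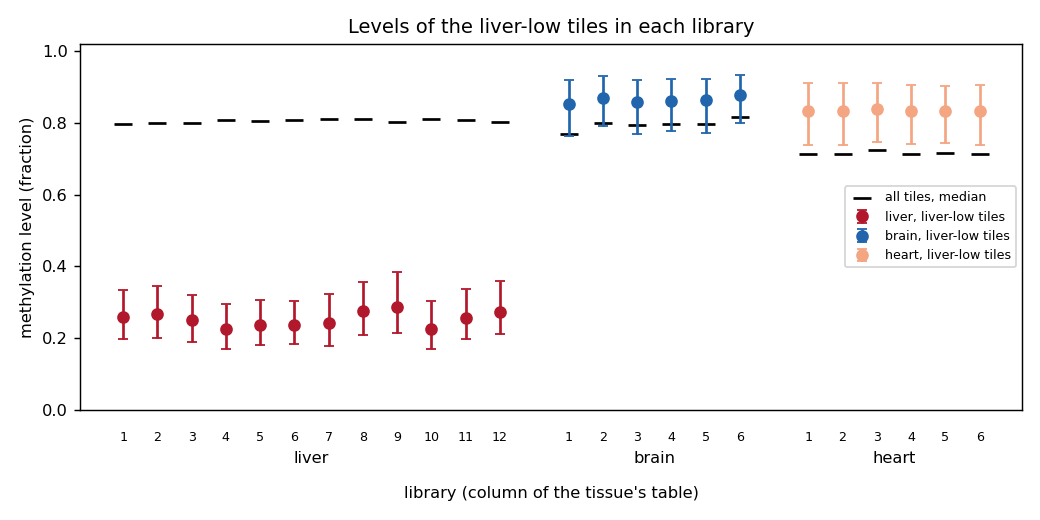
Methylation level (fraction) of the liver-low tiles in each of the 24 libraries, with points at the median and bars from the 25th to the 75th percentile of tiles; black dashes are the medians of all tiles. The 12 liver medians sit between 0.224 and 0.286 and those of brain and heart between 0.833 and 0.879.

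The rule was also applied with each library left out in turn, so that the left-out library had no part in the choice. Between 9142 and 9397 tiles were then chosen, of which 9048 to 9196 were also chosen with all libraries. In the left-out liver libraries the median level over the tiles chosen without them was 0.225 to 0.289, and 99.2% to 99.9% of those tiles lay below every brain and heart library. Left-out brain libraries had medians of 0.853 to 0.88 and left-out heart libraries medians of 0.832 to 0.839. A left-out brain library lay above every liver library in at least 99.3% of the tiles and a left-out heart library in 99.6% to 99.7%. The libraries that the left-out one was compared with, and the rest of its own tissue, still chose the tiles. Much of this separation is thus built in, and nothing is read from its size.

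The liver-low tiles lay mostly inside genes and away from promoters. Introns held 4457 of them (48.2%, against 36.2% of all tiles), intergenic sequence 3260 (35.3% against 42.1%), coding sequence 943 (10.2% against 10.7%), promoters of 1000 bp 319 (3.45% against 7.41%) and other exons 268 (2.9% against 3.64%). CpG islands held 33 tiles (0.357%, against 10.6% of all tiles), and the shores of 2000 bp beside islands held 678 (7.33% against 8.06%). Tiles that could meet the rule at all, with brain and heart both at 0.4 or above and within 0.2, numbered 478068. Of those, 0.604% lay in islands, 1.34% in promoters and 37.8% in introns. The promoter share of the liver-low tiles was thus below that of all tiles and above that of the tiles that could meet the rule, while their intron share was above both.

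The distance to the nearest transcription start had a median of 14742 bp, against 20825 bp for all tiles and 29591 bp for tiles that could meet the rule. It was 32609 bp for tiles low only in brain and 26057 bp for tiles low only in heart. A start lay within 1000 bp of 614 liver-low tiles (6.64%), against 14.8% of all tiles and 2.45% of tiles that could meet the rule. Over 5000 and up to 50000 bp from a start lay 5039 (54.5%), against 42.7% and 50.2%. The median tile held 2 CpGs, the same as in all tiles and in tiles that could meet the rule. The mean was 2.49, against 3.39 in all tiles and 2.62 in tiles that could meet the rule. On the reference, 10 liver-low tiles held no CpG (0.108%). Repeats covered 50 or more of the 100 bases in 1066 liver-low tiles (11.5%), in 20% of all tiles and in 26.5% of tiles that could meet the rule. The share was 3.45% in tiles low only in brain and 4.63% in those low only in heart. All 19 autosomes held liver-low tiles, from 0.988% of the tiles of chromosome 12 to 1.62% of those of chromosome 19.

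Liver-low tiles were often close together. With tiles joined where no more than 1000 bp lay between neighbours, they formed 6362 clusters, of which 4261 were single tiles, 1570 were pairs and 531 held 3 tiles or more, the largest 11. Another liver-low tile lay within that distance of 4986 of them (53.9%), against 39.3% of tiles low only in brain and 37.1% of those low only in heart, sets that are smaller and so more sparse. Directly adjoining tiles outside the rule were also low in liver: of 3389 such tiles, 2882 (85%) had a liver level below both other tissues, against 16.8% of all tiles, and 1796 (53%) had a gap of 0.2 or more, against 3.07%. The median liver level was 0.464 in adjoining tiles, 0.639 at 200 bp, 0.689 at 300 bp and 0.739 at 400 bp. Brain stayed between 0.782 and 0.82 over these distances and heart between 0.704 and 0.758. At 300 bp the median gap to the lower of brain and heart was 0.00808, with liver still below the brain median.

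**Figure D2:**
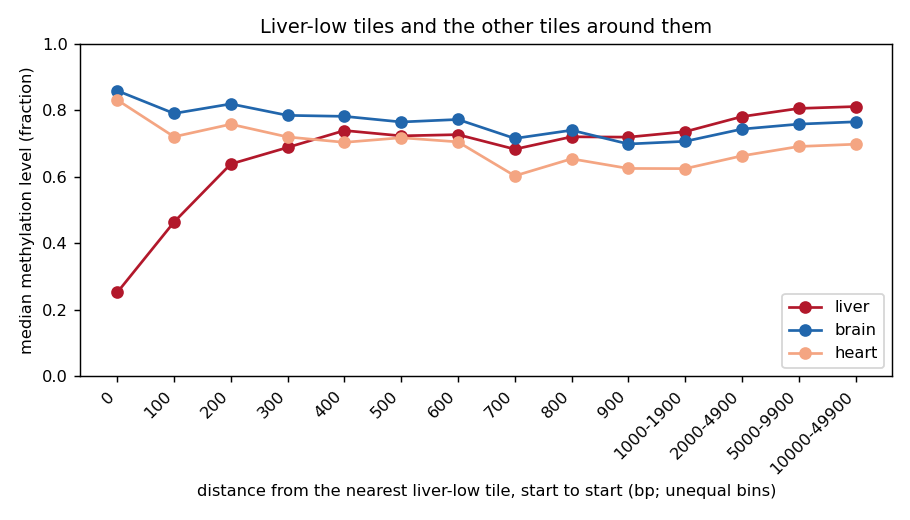
Median methylation level (fraction) of the liver-low tiles (distance 0) and of the other tiles around them, by distance in bp from the nearest liver-low tile in unequal bins. Liver rises from 0.252 to 0.464 at 100 bp and 0.739 at 400 bp, while brain and heart run between 0.603 and 0.859 over all bins.

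10 clusters held 7 or more liver-low tiles. The largest, in an intron of Dnmbp, an exchange factor for the GTPase Cdc42, covered 2200 bp (chr19:43888401-43890600), and all 11 measured tiles in it were liver-low, with mean liver levels of 0.261 to 0.384 and brain levels of 0.83 to 0.974. The Fga cluster covered 3200 bp in exons and introns of the fibrinogen gene (chr3:83028801-83032000), and 8 of its 9 tiles were liver-low, at 0.221 to 0.293 in liver. A cluster upstream of C3, the central complement protein, reached into Gpr108 (chr17:57232901-57236000), with 8 of 8 tiles at 0.19 to 0.302. The Pik3ap1 cluster (chr19:41346201-41348100) held 8 liver-low tiles of 10, at 0.148 to 0.239. In these 4 clusters the low liver level ran through nearly every measured tile.

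Of the 6 clusters with 7 liver-low tiles, the one in intron 2 of Ppara, the fatty acid sensing receptor, had the widest liver range, 0.125 to 0.371 (chr15:85771101-85772600, 7 of 9 tiles). Those at Proz, the clotting cofactor protein Z (chr8:13060701-13062000), and at A1cf, the cofactor of apolipoprotein B mRNA editing (chr19:31868401-31869100), reached the transcription start, and in both all 7 tiles were liver-low. At A1cf liver lay between 0.228 and 0.283 and brain between 0.847 and 0.956. The cluster at Anpep, an aminopeptidase gene, held 7 of 8 tiles, the one at Tstd1 and Usf1, which also reached a start, held 7 of 9 and the one upstream of Osgin1 held 7 of 7. One of the Osgin1 tiles had 92 repeat-masked bases. The non-member tiles in the Ppara cluster were not high in liver: they were lower in heart and in brain than the members. Their brain means were 0.663 and 0.468, and the lowest of a member was 0.685.

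**Figure D3:**
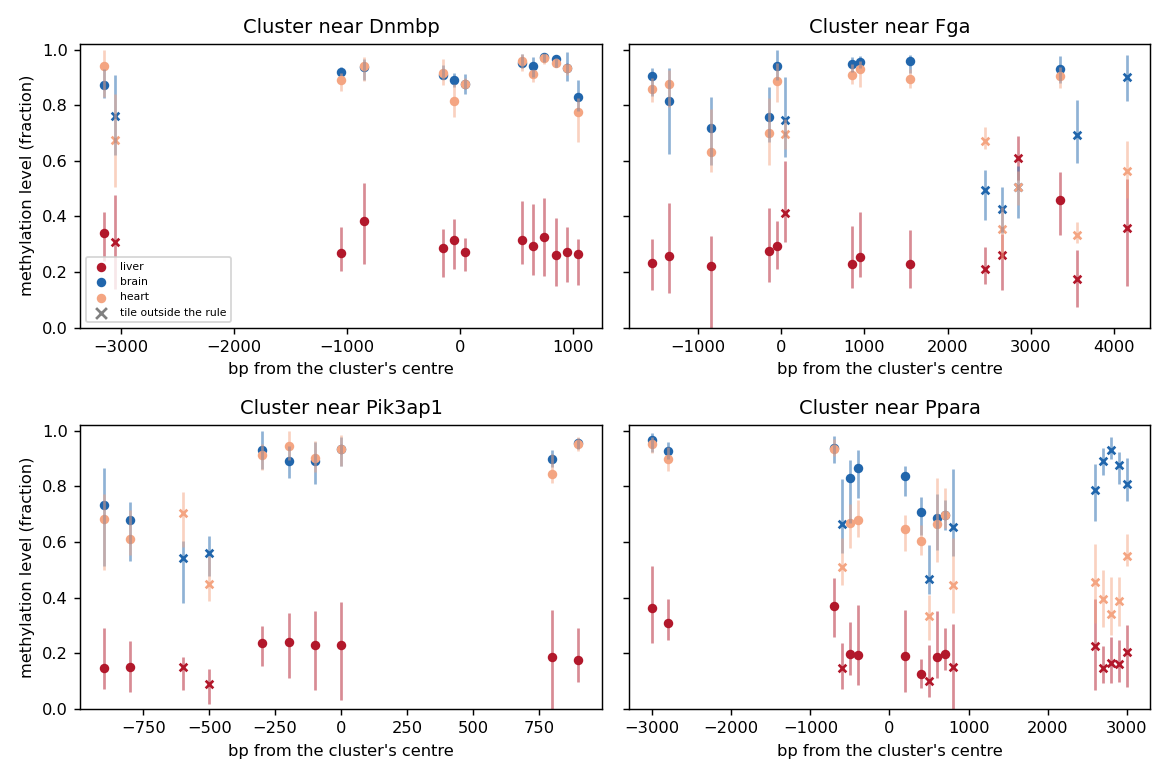
Methylation level (fraction) of every measured tile by distance in bp from the centre of 4 clusters; points are tissue means, bars run from the lowest to the highest library, circles are liver-low tiles and crosses tiles outside the rule. At Dnmbp all 11 tiles of the cluster have liver means of 0.261 to 0.384, and at Ppara the crosses are low in liver and reduced in heart.

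Liver-low tiles lay within 5000 bp of 3843 of the 23223 genes with a measured tile (16.5% of genes), and 6774 of the tiles (73.3%) were that close to a gene, against 64.3% of all tiles. The genes with most were Rbm47, an RNA-binding protein that takes part in apolipoprotein B mRNA editing, with 18 of 98 tiles, and Rxra with 17 of 77. Mtss1, an actin-binding protein gene, had 15 of 173, Prkce (protein kinase C epsilon) 15 of 325, and Scarb1, the HDL receptor, 14 of 80. These genes were picked for their number of liver-low tiles, which made up 4.62% to 22.1% of their tiles, so nothing is read from that share. The best Scarb1 tile, in intron 1 (chr5:125330201-125330300), ranged from 0.025 to 0.2 in liver (median 0.104), from 0.787 to 0.885 in brain and from 0.829 to 0.902 in heart. The best Rbm47 tile, in intron 3 (chr5:66053201-66053300), ranged from 0.135 to 0.278 in liver, from 0.927 to 0.974 in brain and from 0.926 to 0.986 in heart. The Prkce tile with the largest gap had 77 repeat-masked bases.

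In each of the 10 lists of hepatocyte function the share of genes with a liver-low tile was above that of all genes. That share rises with the number of tiles per gene, whose median ran from 7 in drug metabolism to 48.5 in transcription factors, against 18 over all genes. By tile, which does not depend on it in that way, the shares ran from 6.1% to 21.9% in the 10 lists, against 1.37% over all genes. These are shares of all measured tiles, and the tiles of each list that could meet the rule were not counted. Among secreted and transport proteins, 33 of 41 genes had one (80.5%), and 102 of their 566 tiles were liver-low (18%). Ahsg, the plasma protein fetuin-A, had 6 of 7 tiles, Alb (albumin) 3 of 5, Trf (transferrin) 8 of 37, Itih1 6 of 17 and Apoc2 6 of 19. At the Ahsg tile of largest gap, in intron 1 (chr16:22893601-22893700), liver ranged from 0.081 to 0.356 (median 0.252), brain from 0.909 to 1 and heart from 0.922 to 1. Among clotting genes 17 of 22 had one (77.3%), and 79 of 361 tiles (21.9%) were liver-low, the highest share of any list. The 3 fibrinogen chain genes had 10 of 17 (Fga), 7 of 10 (Fgb) and 6 of 11 tiles (Fgg), and Serpinc1 (antithrombin), F10 and F2 (factors of the cascade) had 8 each. At the F10 tile in exon 3 (chr8:13039501-13039600), liver ranged from 0.148 to 0.356 (median 0.192), brain from 0.864 to 0.913 and heart from 0.833 to 0.953. Those without a liver-low tile included Plg (plasminogen), with 18 measured tiles, and F11, with 16.

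Complement and acute phase genes had liver-low tiles in 18 of 31 (58.1%), with 8 of 20 tiles at Cfb (complement factor B), 6 of 17 at C3 and 10 of 65 at Lifr, the receptor subunit for leukaemia inhibitory factor. The Lifr tile of largest gap, in intron 1 (chr15:7136301-7136400), had a liver range of 0.019 to 0.209 (median 0.104), with brain at 0.8 to 0.92 and heart at 0.769 to 1. In bile acid synthesis and transport 15 of 23 genes had one (65.2%), led by Abcc2, Acox2 and Akr1d1 with 5 each and Cyp8b1, the enzyme of cholic acid synthesis, with 4. Cyp7a1, the rate-limiting enzyme, had none among 5 tiles. The Cyp8b1 tile of largest gap (chr9:121914801-121914900) ranged from 0.167 to 0.643 in liver with a median of 0.226, so that at least 1 library stood far above the median, and still below the lowest brain (0.915) and heart (0.9) library.

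In drug and steroid metabolism 20 of 46 genes had a liver-low tile (43.5%), the lowest share among the lists of hepatocyte function, over few tiles per gene (a median of 7). Aldh1a1 (retinaldehyde dehydrogenase) had 6 of 31 tiles, and Por, the reductase that serves all microsomal cytochromes P450, had 3 of 50. Urea cycle and amino acid genes had one in 30 of 39 (76.9%), including Haao with 8 of 17 tiles, Gnmt (glycine N-methyltransferase) with 7 of 20, and Bhmt and Tat with 6 each. The Gnmt tile of largest gap, in intron 2 (chr17:46727101-46727200), ranged from 0.118 to 0.357 in liver (median 0.261), from 0.882 to 0.975 in brain and from 0.864 to 0.913 in heart. Brain and heart overlapped there, and liver lay below both.

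For glucose, fructose and glycogen metabolism 12 of 19 genes had one (63.2%), and Pck1 alone had 12 of 26 tiles. Pklr (pyruvate kinase of liver and red cells) had 3 of 37, G6pc (the last step of glucose release) 2 of 10, and Slc2a2, the hepatocyte glucose transporter, none of 10. Lipid metabolism genes had one in 28 of 40 (70%), including Scarb1 and Ppara (12 of 65) and Gpam, an enzyme of triglyceride synthesis, with 6 of 29. Growth hormone, insulin and growth factor signalling genes had one in 14 of 22 (63.6%), with 10 of 60 tiles at Met, the receptor of hepatocyte growth factor, 6 of 14 at Igfbp1 and 3 of 3 at Leap2. The Igfbp1 tile, 2836 bp upstream (chr11:7194901-7195000), had a tight liver range of 0.161 to 0.251, with brain at 0.904 to 0.977 and heart at 0.899 to 1. Igf1, with 19 tiles, had none.

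The transcription factors of hepatocytes had a liver-low tile in 25 of 32 genes (78.1%), 111 of 1765 tiles (6.29%). Rxra had 17 of 77, Ppara 12 of 65, Hnf4a 11 of 52, Nr5a2 (a regulator of bile acid genes) 8 of 82 and Cebpb 7 of 30. The Hnf4a tile of largest gap lay 196 bp after one of the gene's starts (chr2:163547301-163547400), at 0.112 to 0.311 in liver (median 0.237), 0.924 to 0.983 in brain and 0.877 to 0.96 in heart. Foxa1 and Foxa2 had none among 45 and 52 tiles, whereas Foxa3 had 4 of 47. The Nr5a2 tile of largest gap (chr1:136842801-136842900) ranged from 0.134 to 0.302 in liver, from 0.928 to 0.96 in brain and from 0.906 to 0.971 in heart.

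Marker genes of other cells are given for comparison. Kupffer cell and leukocyte genes had a liver-low tile in 1 of 19 (5.26%), which was Csf1r, the receptor of macrophage colony-stimulating factor, with 3 of 12 tiles. At its tile of largest gap (chr18:61110101-61110200, intron 3) liver ranged from 0.091 to 0.389 (median 0.18), brain from 0.928 to 0.99 and heart from 0.896 to 0.975. Endothelial genes had one in 2 of 14 (Gata4 and Stab2), and stellate cell genes in 2 of 14 (Reln and Acta2), counts near the 16.5% of all genes. By tile the shares were 0.455% and 0.579%, and 1.18% for the leukocyte genes. The Stab2 tile was close to the limit of the rule, with a gap of 0.41. Cholangiocyte genes had one in 3 of 9 (33.3%), among them Sctr (the secretin receptor) and Spp1. By tile their share was 7 of 232 (3.02%), above the 1.37% over all genes. Neuronal and glial genes had one in 4 of 26 (15.4%) and cardiomyocyte genes in 4 of 24 (16.7%), shares close to that of all genes. By tile their shares were 0.396% and 0.657%, below the 1.37% over all genes. Tiles below 0.4 in brain or heart cannot meet the rule, and how many tiles of each list could meet it was not counted. The Syt1 and Gata4 tiles of largest gap had 69 and 83 repeat-masked bases. The 13 genes used by every cell had none among 240 tiles. How many of these tiles could meet the rule was not counted either, so nothing is read from that count.

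**Figure D4:**
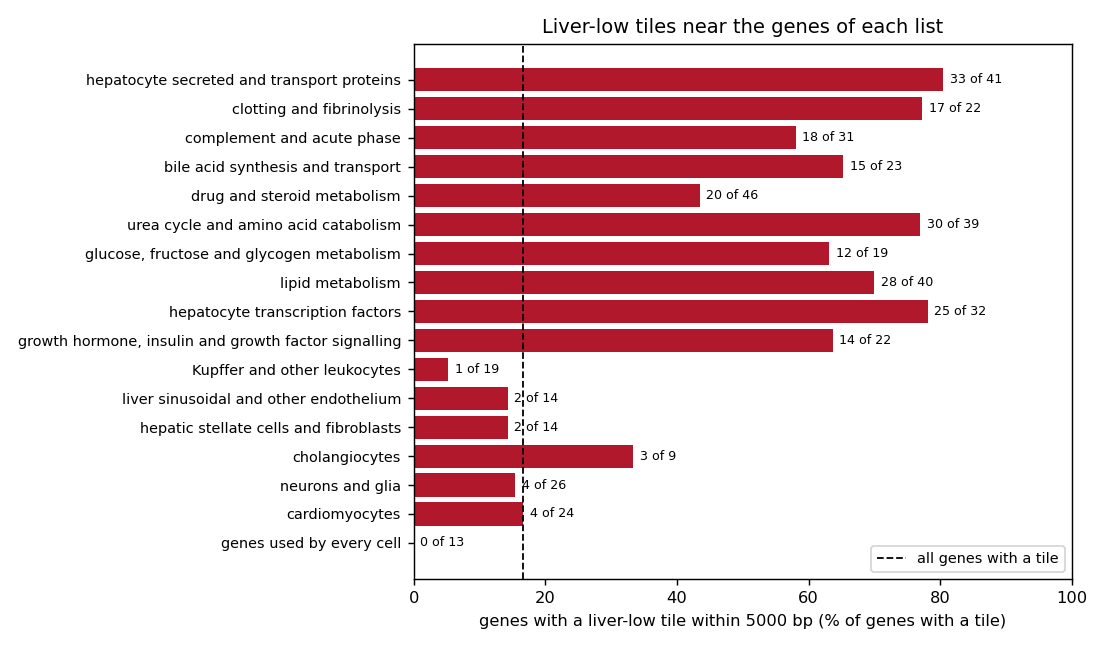
Share of the genes of each list that have a liver-low tile within 5000 bp (percent of genes with a measured tile); the dashed line is the share over all genes, 16.5%, and the counts stand beside the bars. The 10 lists of hepatocyte function run from 43.5% to 80.5%, and the lists of other cells from 5.26% to 33.3%.

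The 6 promoter tiles with the largest gap lay at 4 places. The tile 687 bp upstream of Gsr (chr8:33652501-33652600) ranged from 0.076 to 0.2 in liver (median 0.146), from 0.886 to 1 in brain and from 0.871 to 0.957 in heart, and the tile next to it had a gap of 0.723. A pair of tiles in the second exon of Apof, which also lies upstream of Stat2 and so counts as its promoter, had gaps of 0.735 and 0.73. The Smlr1 tile, in the first exon (chr10:25535901-25536000), ranged from 0.091 to 0.315 in liver (median 0.211), and the tile in intron 1 of Afmid, kynurenine formamidase, upstream of Tk1 (chr11:117827001-117827100), from 0.105 to 0.293 (median 0.186). In these 6 tiles every liver library lay below every brain and heart library.

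Sequence motifs of hepatocyte factors were counted in the 100 bases of each tile, on both strands. A tile with a large gap is printed for each of 4 motifs, a different one each time, with the match to the named motif in capitals. The FOXA tile also holds a CEBP match and has the larger gap of these 2 tiles.
HNF4, intergenic, 38346 bp after the start of Ube2ql1, chr13:69701501-69701600: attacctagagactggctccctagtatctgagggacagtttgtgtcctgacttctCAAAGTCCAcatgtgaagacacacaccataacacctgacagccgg
FOXA, intergenic, chr16:24240801-24240900: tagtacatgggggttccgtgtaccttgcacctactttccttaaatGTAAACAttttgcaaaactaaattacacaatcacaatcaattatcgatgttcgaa
CEBP, intron 3 of Rcl1, chr19:29120401-29120500: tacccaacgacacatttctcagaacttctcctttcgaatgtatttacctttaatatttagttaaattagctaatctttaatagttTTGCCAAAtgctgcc
ONECUT, intergenic, 171560 bp after the start of Kit, chr5:75746501-75746600: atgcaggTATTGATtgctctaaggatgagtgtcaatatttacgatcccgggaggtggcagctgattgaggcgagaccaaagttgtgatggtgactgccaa

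The tile with the HNF4 match had a gap of 0.731, the one with the FOXA match 0.759, the one printed for CEBP 0.735 and the one with the ONECUT match 0.745. In the FOXA tile liver ranged from 0.087 to 0.263 (median 0.172), brain from 0.9 to 0.97 and heart from 0.892 to 1. A match is a run of letters and not a measured binding site.

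The letters CAAAGTNCA, the core of a sequence bound by HNF4 alpha and related receptors, were in 175 liver-low tiles (1.89%), against 0.349% of all tiles, a ratio of 5.43. ATCAATA, bound by ONECUT factors, was in 305 tiles (3.3% against 0.677%, a ratio of 4.87). TGTTTAC, bound by FOXA factors, was in 282 (3.05% against 1.05%). TTGCNNAA, bound by CEBP factors, was in 611 (6.61% against 3.54%). At least 1 of these 4 motifs was in 1295 liver-low tiles (14%), against 5.52% of all tiles, 6.1% of tiles low only in brain and 4.07% of those low only in heart. Most liver-low tiles, then, held none of them.

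Of the other nuclear receptor sequences, the single site AGGTCA was in 1044 liver-low tiles (11.3% against 5.74% of all tiles), and the DR1 direct repeat, 2 such receptor sites with 1 base between them, which can overlap the single site, was in 39 (0.422% against 0.119%). TTCNNNGAA, bound by STAT factors, was in 3.29% of liver-low tiles and 2.9% of all tiles, a ratio of 1.14. TGANTCA, bound by AP-1, was in 2.81% and 2.32%. CAGATGG, bound by neuronal basic helix-loop-helix factors, was in 1.67% of liver-low tiles, 1.92% of all tiles and 3.95% of tiles low only in brain. CTAAAAATA, bound by the muscle factor MEF2, was in 0.0757% of liver-low tiles, 0.123% of all tiles and 0.93% of tiles low only in heart. The CTCF motif was in 1 liver-low tile (0.0108%), against 0.051% of all tiles and 0.0159% of tiles that could meet the rule. Nothing is read from so small a count. The neuronal motif was thus most frequent in the tiles low only in brain and the MEF2 motif in those low only in heart.

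The ratios were nearly the same against the tiles that could meet the rule, at 5.36 for HNF4, 4.18 for ONECUT, 2.78 for FOXA and 1.75 for CEBP. Within tiles of equal CpG number the HNF4 ratio ran from 5.17 to 6.23 over 4 classes and the FOXA ratio from 2.37 to 3.11. The ONECUT ratio rose with CpG number, from 3.02 at 1 CpG to 9.56 at 5 or more, where 20 tiles held it. The size of the gap hardly moved with a match: its median was 0.532 with and 0.521 without an HNF4 match. It was 0.534 and 0.521 for ONECUT, 0.527 and 0.521 for FOXA, and 0.515 and 0.522 for CEBP.

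**Figure D5:**
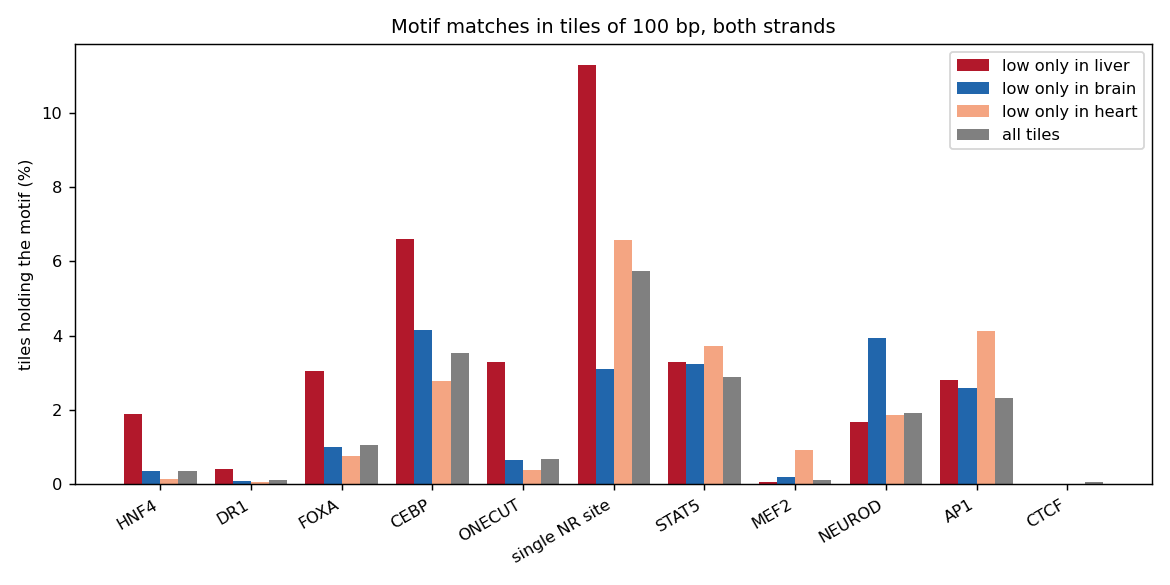
Share of tiles (percent) whose 100 bases hold each of 11 motifs, for tiles low only in liver, only in brain and only in heart and for all tiles. The HNF4, FOXA, CEBP, ONECUT and single nuclear receptor site bars are highest for the liver-low tiles, at 1.89%, 3.05%, 6.61%, 3.3% and 11.3%.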

How the data were processed

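Per the labels and the study's methods, libraries were made, sequenced and mapped by an outside service whose methods are proprietary. The authors combined the CpG calls with methylKit 0.99.2 in 100 bp tiles, kept those read more than 10 times in all replicates while dropping extreme coverage, and deposited 3 tables of methylation fractions (3 decimals) on mm10, without read counts. The submitters' processing notes name Bismark, methylKit and mm10. The mapping of reads with several matches, which can affect near-identical gene copies, is not given in the sources used here. The tables held 819713 liver, 942643 brain and 930358 heart tiles on autosomes, so depth per library is unknown and no interval on a level could be given.

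Columns were grouped by the tissue of their table. Tissue levels are means of all columns of that tissue, compared in thousandths without rounding. On mm10, 99.9% of tiles held a CpG, against 55.8% of tiles moved by 100000 bp. CpG islands (15611) were called on repeat-masked sequence with a running score (over 200 bp long, GC content from 50%, CpG ratio over 0.6). Genes were 43783 curated RefSeq transcripts of 24963 genes. A tile touching several classes was given to promoter (1000 bp upstream) first, then to coding sequence, to other exons and to introns. A gene's exon or intron number is that of its longest transcript. Gene counts used tiles inside a gene or within 5000 bp.

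The rule used all levels, so no test between tissues was run and no p-value is given; Dixon's outlier test within tissues stands in the closing section. The tiles, gene lists and motifs were chosen with earlier results of these data known. The text names the 10 tiles and 6 promoter tiles of largest gap, the clusters with most tiles (10, since 6 tied at 7 tiles), up to 4 genes per list by number of liver-low tiles, the 2 tiles on each side of the gap of 0.4, and the 5 genes with most tiles; other genes were named after their values were seen. A few genes that this choice would name, and a motif, are not reported here, although list counts include them. Alternatives were other gaps, limits, medians, leaving out each library, other promoters, distances and windows. Functions were tested on simulated data. Python 3.11.15, numpy 2.4.6 and pandas 2.3.3 were used.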

Additional observations from a re-analysis of the deposited data

Results flagged for a closer look

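Dixon's test at 95% was applied to the 6 brain and the 6 heart libraries in 58 groups of values, the library medians and the levels of 28 named tiles, and 2 groups held a value past its limit. Chance flags about 1 in 20 groups. The median over the liver-low tiles was 0.84 in 1 heart library (column 3) and 0.833 in each of the other 5. Since those 5 are tied at 3 decimals, any other value would pass the limit, and nothing is read from it. At the tile 787 bp upstream of Gsr (chr8:33652401-33652500), 1 brain library stood at 0.812 and the others between 0.923 and 0.977; the highest liver library there was at 0.295. The 12 liver libraries are too many for this test.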

How the results depend on the processing

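Of 9247 tiles, 5362 remained at a gap of 0.5 and 5573 held no repeat-masked base; leaving out 1 library at a time gave 9142 to 9397. The median brain level was 0.837 at a gap of 0.3 and 0.886 at 0.5. The median heart level was 0.805 at a gap of 0.3, 0.865 at 0.5, 0.852 with brain and heart within 0.1, 0.827 with no such limit, 0.838 in tiles with 2 or more CpGs and 0.828 in tiles with no repeat-masked base; the median liver level moved by less than the SD of the library medians in every alternative. The promoter share was 6.42% with promoters of 2000 bp and 7.01% with 1000 bp on both sides. With 1000 bp on both sides, coding sequence held 8.94%, other exons 2.43% and introns 46.4%; with 2000 bp, intergenic sequence held 33.6%. At a gap of 0.5, coding sequence held 10.9% and intergenic sequence 34.3%. The share with a liver-low neighbour was 52.5% within 500 bp and 59.4% within 5000 bp. Counting tiles within 20000 bp, 3 of 19 leukocyte, 5 of 14 endothelial, 8 of 25 cardiomyocyte and 2 of 13 everywhere-used genes had a liver-low tile. Over all genes it was 6140 of 24689. At this distance the endothelial and cardiomyocyte shares were above that of all genes and the leukocyte and everywhere-used shares below it, all on small counts. In windows of 300 bp, which hold more sequence by construction, motif shares were 4.96% (HNF4), 1.6% (DR1), 7.94% (FOXA), 17.2% (CEBP), 7.74% (ONECUT), 29.6% (single nuclear receptor site), 10.1% (STAT5), 0.379% (MEF2), 6.3% (NEUROD) and 9.13% (AP1). In these windows the ratio to all tiles was 4.21 for HNF4, 2.34 for FOXA, 1.57 for CEBP and 3.31 for ONECUT. At 100 bp it was 5.43, 2.89, 1.87 and 4.87, so the excess of these motifs was smaller in the wider windows. The ratio also fell for the single nuclear receptor site, from 1.97 to 1.73, and for CTCF, on few tiles. It rose for DR1 (3.53 to 3.7), MEF2 and NEUROD, and by little for STAT5 and AP1. The other 94 of 129 alternatives stayed within 1.5 times the count, the spread between libraries or the counting interval of the share. Of 55 motif ratios against other backgrounds, 11 moved by more than 1.5 times, all of them for ONECUT or for the rarer DR1, MEF2 and CTCF motifs. The intervals cover counting error only.

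No paired analysis was possible because the columns carry no mouse numbers and no test between tissues was run. Mouse, gender and read depth could not be tied to a column, so their part in the levels was not tested.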
